A study of Mus musculus with 8 samples.

Results

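The aryl hydrocarbon receptor pathway was followed in lens fiber cells (FC) through 9 genes, Ahr, Arnt, Ahrr, Cyp1a1, Cyp1a2, Cyp1b1, Tiparp, Nqo1 and Ugt1a6a. These members were taken by gene symbol from the 35275 genes listed, and each was found in 1 row. FC of C57BL/6 mice (C57BL/6J in the methods) were compared between 4 libraries of mice exposed to cigarette smoke (CS) and 4 libraries of age-matched, untreated control (Ct) mice. Exposure was to the whole body in a smoke chamber, on 5 days of each week for 5 hours at a time, and it lasted 3.5 months for the pups of dams that had entered the chamber late in pregnancy. Each library held FC dissected away from the lens epithelium and pooled from the eyes of 4 mice, so the spread between libraries is a spread between pools and not between single animals. By the methods, 2 pools of each group were male and 2 female, so this spread also holds any difference between the sexes. The labels do not give the sex of each pool.

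The aryl hydrocarbon receptor (AHR) is a transcription factor that waits in the cytoplasm with heat shock proteins until it binds a ligand such as the polycyclic aromatic hydrocarbons of smoke. It then enters the nucleus, pairs with ARNT and binds the xenobiotic response element, whose core is GCGTG, next to genes for drug-metabolizing enzymes. CYP1A1, CYP1A2 and CYP1B1 are cytochrome P450 enzymes that oxidize such compounds, NQO1 reduces quinones, UGT1A6A joins glucuronic acid to phenols, and AHRR and TIPARP are targets that repress the receptor in turn. Mature lens FC have lost their nuclei and organelles, and new transcripts are made in the epithelium and in young FC at the lens surface.

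Levels are given as FPKM, which account for gene length and library size and can be compared between genes. The depth was estimated at 18100000 to 23300000 fragments per library. A gene entered the comparison of groups where the mean of either group reached 1.0 FPKM. This left 9794 genes, for which limma was run on log2(FPKM + 0.1), a scale that understates changes of low genes. All 10 lens fiber markers were in the fit, with a summed level of 323914 to 333369 FPKM in untreated Ct and 315836 to 327276 FPKM in CS-exposed libraries, and none of them had p under 0.05. Rod photoreceptor markers were detected as well, at a summed 11.1 to 29.1 FPKM in untreated Ct and 31.4 to 90.7 FPKM in CS-exposed libraries, and 8 of the 9 in the fit had p under 0.05. Endothelium markers, from a cell type in which Cyp1 genes are readily induced, did not exceed a summed 0.395 FPKM in any library.

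Only 3 of the 9 members, Arnt, Tiparp and Nqo1, were expressed at 1.0 FPKM or more, and none of the 3 differed between CS-exposed and untreated Ct mice beyond the spread of the libraries. The other 6 members, the receptor gene Ahr among them, stayed under 0.1 FPKM in every library. Cyp1a1 and Cyp1a2, the classical targets, were at 0 in all 8 libraries. Of all genes tested, 473 (4.83%) had an unadjusted limma p under 0.05, 204 (2.08%) lower and 269 (2.75%) higher in CS-exposed mice, and 1 (0.0102%) kept an adjusted p under 0.05. Against this background, 0 of the 3 members in the fit had p under 0.05. The 2 groups did not overlap for 302 of the genes tested (3.08%), and they overlapped for each of the 3 members in the fit.

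To show where the letters of the core lie at these genes, the RefSeq promoters (GRCm38.p6) were searched over 250 bases before the start for GCGTG on either strand, which reads CACGC where the element lies on the other strand. Promoters were found for 8 members, and none was at hand for Ahr. The core lay in 5 of these 8, Arnt, Ahrr, Cyp1a1, Cyp1b1 and Tiparp, and in 9250 of all 32851 promoters (28.2%). The 4 target genes with a core are shown 5′ to 3′ along the gene, with up to 60 bases on each side, because they span the range from no read at all (Cyp1a1) to clear expression (Tiparp). Capitals mark the core.
Cyp1a1, chr9:57697499-57697612, plus strand: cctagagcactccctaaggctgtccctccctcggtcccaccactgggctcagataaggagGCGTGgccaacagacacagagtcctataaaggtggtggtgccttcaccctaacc
Cyp1b1, chr17:79715073-79715197, minus strand: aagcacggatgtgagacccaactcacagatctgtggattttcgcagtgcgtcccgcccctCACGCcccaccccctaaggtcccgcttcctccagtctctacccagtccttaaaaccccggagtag
Ahrr, chr13:74292332-74292498, minus strand: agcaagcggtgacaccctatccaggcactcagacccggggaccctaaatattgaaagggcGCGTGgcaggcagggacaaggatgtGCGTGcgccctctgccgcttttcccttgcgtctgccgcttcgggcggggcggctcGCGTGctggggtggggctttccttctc
Tiparp, chr3:65528217-65528341, plus strand: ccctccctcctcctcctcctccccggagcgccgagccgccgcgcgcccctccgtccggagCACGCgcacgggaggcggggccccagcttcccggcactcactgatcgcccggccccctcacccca

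Ahrr held 3 cores, which 911 promoters (2.77%) did or exceeded, and the other 4 genes held 1 each. Counted from the RefSeq start, with -1 as the base before it, the core began at -54 in Cyp1a1 and at -29 in Arnt. On the other strand, it began at -76 in Cyp1b1 and at -170 in Tiparp. These RefSeq starts differ from the gene starts given for GENCODE where the latter holds a longer transcript, as for Cyp1a1 and Tiparp. The window of Cyp1a1 lay in an intron of a longer annotated transcript of the same gene, and that of Tiparp in an exon of 4931440P22Rik, a gene on the opposite strand. No core was found in this window for Cyp1a2, Nqo1 or Ugt1a6a, which says only that these letters are not there. Well-known elements of Cyp1a1 lie farther upstream and were not searched.

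**Figure D1:**
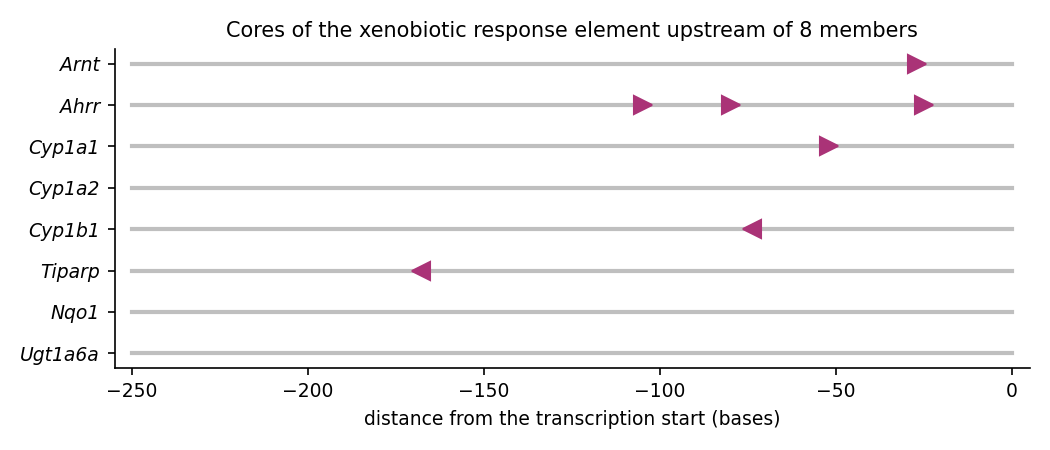
Positions of GCGTG (right-pointing triangles) and of CACGC, the core on the other strand (left-pointing triangles), over the 250 bases before the start of 8 members, with distance from the start in bases on the x axis. Ahrr has 3 cores, 4 genes have 1 and 3 genes have none.

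The receptor gene Ahr (chr12:35497974-35535038, minus strand, GRCm38) was barely detected. Its FPKM in the 4 untreated Ct libraries was 0.0272, 0, 0.0465 and 0.0199, and in the 4 CS-exposed libraries 0.0342, 0.0546, 0.0263 and 0.0250. These values rested on 3, 0, 6 and 2 reads in untreated Ct and on 4, 7, 3 and 3 reads in CS-exposed libraries. The groups overlapped, and 63.8% of 22026 protein-coding genes had a higher mean level. The mean was 0.0234 ± 0.0192 FPKM in untreated Ct and 0.0350 ± 0.0137 FPKM in CS-exposed mice (SD over 4 libraries each). The difference of 0.14 on the log2(FPKM + 0.1) scale was within the spread of the libraries (two-sided exact permutation test over 70 assignments, p = 0.371, where 0.0286 is the smallest p this design allows). It was 0.04 without replicate 2 and 0.22 without replicate 3 of untreated Ct mice, 0.07 without replicate 2 of CS-exposed mice, and 0.02 and 0.63 with pseudocounts of 1 and 0.01 FPKM. In a fit with no minimum FPKM, in which 862 of 21019 genes (4.1%) had p under 0.05, limma gave Ahr an adjusted p of 0.917. The comparison rested on 28 reads over the 8 libraries, and no difference of Ahr was detectable at this depth.

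Arnt (chr3:95434388-95497240, plus strand), the partner of AHR and of other factors of its class, was the member of highest level, and 19.2% of protein-coding genes lay above it. Its FPKM was 5.08, 5.21, 6.16 and 4.996 in untreated Ct libraries and 6.33, 6.11, 5.51 and 4.98 in CS-exposed libraries. The highest and the lowest value both came from CS-exposed mice, and the groups overlapped. The mean was 5.36 ± 0.537 FPKM in untreated Ct and 5.73 ± 0.610 FPKM in CS-exposed mice (SD over 4 libraries each). The log2 fold change was 0.09 (SE 0.11, 95% interval -0.14 to 0.33), limma gave an adjusted p of 0.985, and the interval of the fold ran from 0.909 to 1.25. The libraries of a group differed by a CV of 10.01% in untreated Ct and 10.6% in CS-exposed mice, where counting alone gives 4.60% and 4.32%. In pooled tissue of this kind, fewer cells of a type and less RNA per cell cannot be told apart.

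Tiparp (chr3:65528410-65555518, plus strand) encodes a mono-ADP-ribosyltransferase that acts on the receptor, and of the 2 targets that repress it, Tiparp and Ahrr, only Tiparp reached 1.0 FPKM. Its FPKM was 2.56, 3.10, 3.11 and 2.21 in untreated Ct libraries and 2.46, 2.54, 3.76 and 2.14 in CS-exposed libraries. Replicate 3 of CS-exposed mice was the highest of the 8 libraries and replicate 4 the lowest, so that the range of CS-exposed mice enclosed that of untreated Ct mice. The same replicate 3 had the highest sums of rod markers (90.7 FPKM) and retinal pigment epithelium markers (25.6 FPKM). The part of these cells in the level of Tiparp was not tested. The means were 2.75 ± 0.439 and 2.73 ± 0.713 FPKM (SD over 4 libraries each). The log2 fold change was -0.03 (SE 0.18, 95% interval -0.42 to 0.36), with an adjusted p of 0.995 by limma. Without replicate 3 of CS-exposed mice the log2 fold change was -0.19, and without replicate 4 it was 0.07. The interval of the fold, 0.748 to 1.29, leaves room for a moderate change in either direction. Of the exon bases of Tiparp, 94.9% were its own, and the rest also belonged to 4931440P22Rik on the opposite strand. Whether reads were counted by strand is not given in the sources used here.

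Nqo1 (chr8:107388225-107403206, minus strand), a quinone reductase that both AHR and the oxidative stress factor NRF2 can induce, lay close to the limit of expression. Its FPKM was 1.04, 0.815, 1.30 and 1.92 in untreated Ct libraries and 1.13, 1.62, 1.25 and 0.744 in CS-exposed libraries, from 25 to 58 reads in each. The highest value was that of an untreated Ct library and the lowest that of a CS-exposed library, with wide overlap. The means were 1.27 ± 0.479 and 1.19 ± 0.360 FPKM (SD over 4 libraries each). The log2 fold change of -0.07 (SE 0.29, 95% interval -0.70 to 0.56) had an adjusted p of 0.995 by limma. Its spread was the widest of the 3, with a CV of 37.7% and 30.4% where counting gives 15.9% and 15.8%, and the interval of the fold, 0.614 to 1.47, was correspondingly wide. Without replicate 4 of untreated Ct mice the log2 fold change was 0.14, and without replicate 4 of CS-exposed mice it was 0.12.

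**Figure D2:**
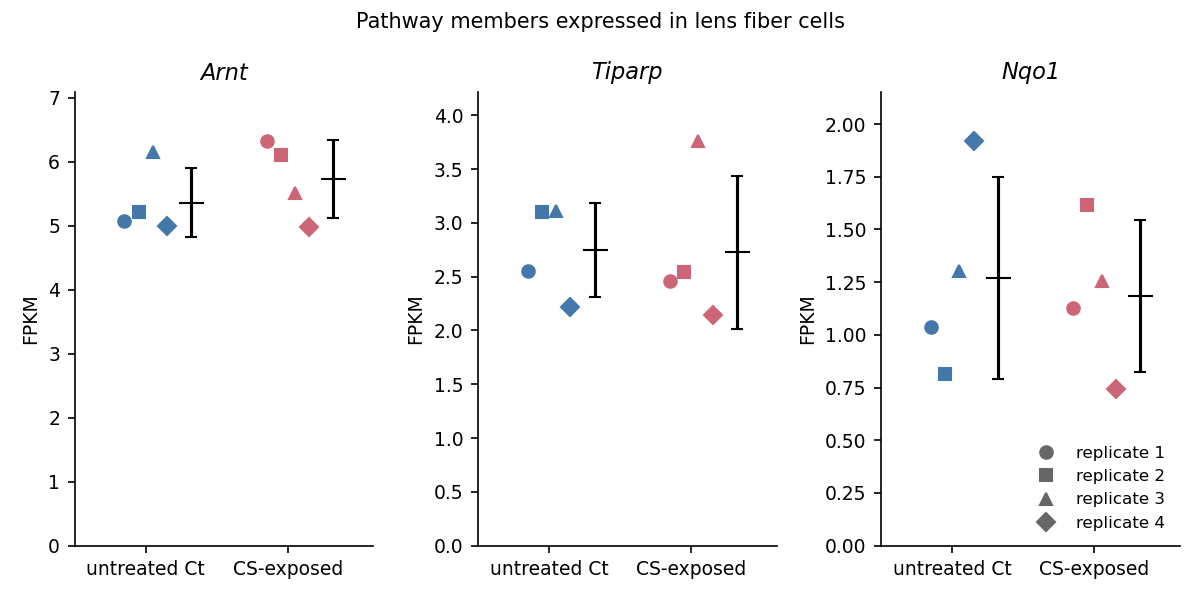
FPKM (y axis, from 0) of Arnt, Tiparp and Nqo1 in the 4 untreated Ct (blue) and 4 CS-exposed (red) libraries, with marker shapes for the replicate number and the mean with its SD beside each group. The groups overlap for all 3 genes, with means of 5.36 and 5.73 for Arnt, 2.75 and 2.73 for Tiparp and 1.27 and 1.19 for Nqo1.

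The remaining 5 members, all targets of AHR, gave few reads or none. Cyp1a1 (chr9:57687928-57703824, plus strand) and Cyp1a2 (chr9:57676937-57683703, minus strand) had 0 reads in each of the 8 libraries. A count of 0 over 4 libraries allows up to 3 reads, which for Cyp1a1 is 0.0137 FPKM in untreated Ct and 0.0129 FPKM in CS-exposed mice, and for Cyp1a2 0.0191 and 0.0179 FPKM. These limits cover counting error only.

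Cyp1b1 (chr17:79701537-79715061, minus strand), the P450 enzyme of the family that is most often found outside the liver, had 3 reads in replicate 4 of CS-exposed mice (0.0270 FPKM) and 0 in the other 7 libraries. For untreated Ct mice the limit was 0.00722 FPKM. Ahrr (chr13:74211118-74292331, minus strand), the repressor that competes with AHR for ARNT, had 5 reads in replicate 3 of untreated Ct mice (0.0422 FPKM) and 1 read in replicate 3 of CS-exposed mice (0.00955 FPKM). Ugt1a6a (chr1:88134809-88218997, plus strand) had 4 reads in replicate 2 of untreated Ct mice (0.0606 FPKM) and 0 elsewhere, with a limit of 0.0104 FPKM in CS-exposed mice. For these 3 genes the reads of a group came from a single library. In the fit with no minimum FPKM, limma gave adjusted p of 0.932 for Ahrr, 0.930 for Cyp1b1 and 0.906 for Ugt1a6a. Ugt1a6a shares exons with other genes of the Ugt1a cluster, and only 49.7% of its 4312 exon bases are its own, so a low value is uncertain.

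**Figure D3:**
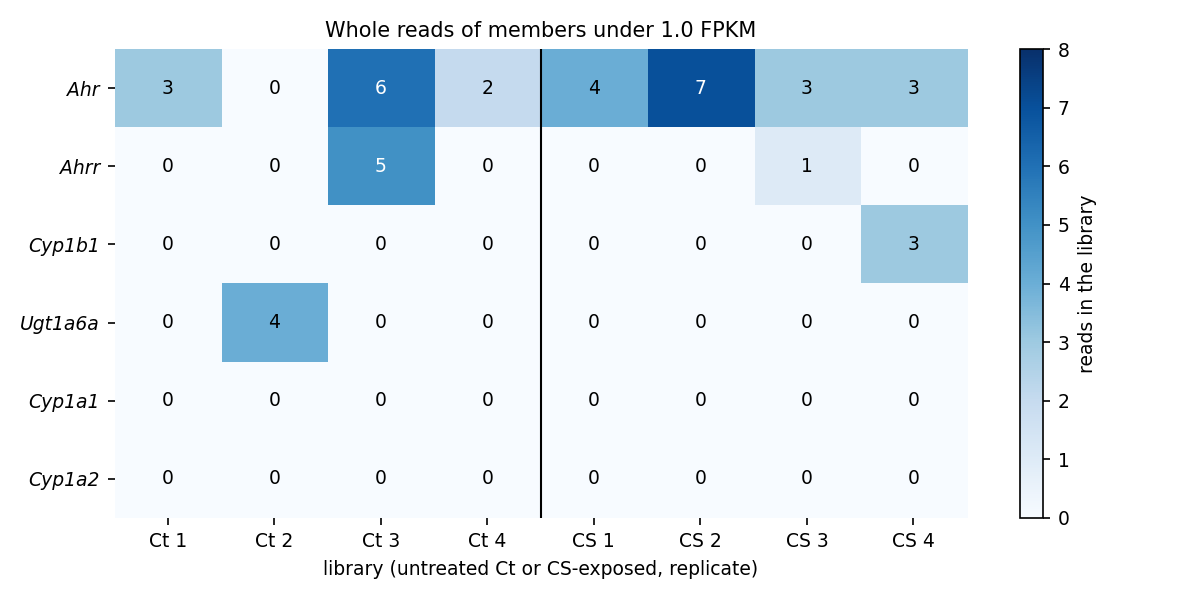
Whole reads of the 6 members under 1.0 FPKM (rows) in each library (columns, untreated Ct left of the line and CS-exposed right of it), with the number of reads printed in each cell and shown by shade. Ahr has 0 to 7 reads per library, Ahrr, Cyp1b1 and Ugt1a6a have reads in 1 or 2 libraries, and Cyp1a1 and Cyp1a2 have none.

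By mean level over the 8 libraries the order was Arnt, Tiparp, Nqo1, Ahr, Ugt1a6a, Ahrr and Cyp1b1, with Cyp1a1 and Cyp1a2 at 0. Arnt exceeded Tiparp by 2.03 times and Tiparp exceeded Nqo1 by 2.23 times, and the ranges over libraries of these neighbours did not overlap. Nqo1 exceeded Ahr by 42.0 times, again without overlap. Below Ahr, neighbours in the order overlapped and could not be ranked at this depth.

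The wider pathway was read from 61 genes in 7 lists, of which 35 were in the fit. Among these 35, 1 was lower and 1 was higher in CS-exposed mice at an unadjusted limma p under 0.05, and no adjusted p was under 0.956. The 2 genes are 5.71% of the 35, beside 4.83% of all genes tested. The median log2 fold change of the 35 was -0.01, beside 0.0043 for all genes. The count was 1 without replicate 3 of untreated Ct mice or without replicate 4 of CS-exposed mice, and 4 without replicate 1 of CS-exposed mice.

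The chaperones that hold AHR in the cytoplasm were abundant. The 3 listed were all in the fit, with a median log2 fold change of 0.02, and 0 had p under 0.05. Hsp90ab1, the constitutive HSP90, was at 871 ± 72.8 FPKM in untreated Ct and 919 ± 22.6 FPKM in CS-exposed mice, and Hsp90aa1, the inducible form, at 100.3 ± 3.34 and 102 ± 4.69 FPKM (SD over 4 libraries each).

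Of the relatives of AHR and ARNT in the bHLH-PAS family, 3 of 9 were in the fit and 0 had p under 0.05. Hif1a, the oxygen-regulated partner of ARNT, was at 11.5 ± 3.20 FPKM in untreated Ct and 10.1 ± 1.35 FPKM in CS-exposed mice, and the circadian factor Clock at 8.20 ± 0.137 and 8.07 ± 0.305 FPKM (SD over 4 libraries each). Hif1a was thus measured at a higher level than Arnt itself. Of the 10 coregulators, all were in the fit, 0 had p under 0.05, and their median log2 fold change was -0.02. The corepressor Ncor1 stood at 11.8 ± 1.14 and 11.4 ± 0.353 FPKM, and Smarca4, the ATPase of a chromatin remodeling complex, at 7.64 ± 0.487 and 7.38 ± 0.318 FPKM (SD over 4 libraries each).

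Among 17 other genes known as AHR targets, 5 were in the fit, 4 were at 0 in every library (Cyp2s1 and, in the Ugt1a cluster with its shared exons, Ugt1a6b, Ugt1a7c and Ugt1a9, whose zeros are as uncertain as the value of Ugt1a6a), and 1 of the 5 had p under 0.05, lower in CS-exposed mice. This gene, Selenbp1, encodes a selenium-binding methanethiol oxidase and was measured at 3.73, 3.40, 4.22 and 3.13 FPKM in untreated Ct and 3.40, 2.66, 2.85 and 2.48 FPKM in CS-exposed libraries. Replicate 1 of CS-exposed mice lay within the untreated Ct range and the other 3 lay below it. The log2 fold change was -0.34 (SE 0.13), with a limma p of 0.0267 and an adjusted p of 0.956, and its p was above 0.05 in 5 of 18 alternative settings. Aldh3a1, an aldehyde dehydrogenase that is abundant in the cornea, was the target of highest level, at 35.7 ± 19.7 FPKM in untreated Ct and 32.5 ± 9.77 FPKM in CS-exposed mice (SD over 4 libraries each). The amino acid transporter Slc7a5 followed at 14.3 ± 0.354 and 14.9 ± 0.907 FPKM. The 3 cornea epithelium markers summed to 1.99 to 4.61 FPKM in untreated Ct and 0.443 to 7.13 FPKM in CS-exposed libraries, mostly from the keratin Krt5, while Krt12, the keratin of cornea itself, did not exceed 0.0895 FPKM. Krt14 was at 0.358 to 0.977 FPKM in untreated Ct and 0.0861 to 0.230 FPKM in CS-exposed libraries. These genes are named after their values were seen, and their part in the level of Aldh3a1 was not tested. Neither Aldh3a1 nor Slc7a5 had p under 0.05, and the log2 fold change of Aldh3a1 was -0.04 (SE 0.31).

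Enzymes of tryptophan breakdown, some of which make AHR ligands, were at low levels, with 1 of 8 genes in the fit. That gene, Il4i1, an amino acid oxidase, was at 1.10 ± 0.497 FPKM in untreated Ct and 1.06 ± 0.268 FPKM in CS-exposed mice (SD over 4 libraries each). Kynu, which encodes kynureninase, was next, at 0.293 ± 0.159 and 0.237 ± 0.160 FPKM. Partners of the P450 enzymes and conjugating enzymes were well expressed, by contrast, with 7 of 8 genes in the fit, 0 with p under 0.05 and a median log2 fold change of -0.02. The glutathione transferase Gstp1 was at 149 ± 12.2 and 145 ± 9.60 FPKM, and Gstm1 at 78.7 ± 21.2 and 66.9 ± 7.23 FPKM (SD over 4 libraries each). Gstp1 has a near-identical neighbour, and its reads may be split between them.

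All 6 targets of NRF2, the factor that shares Nqo1 with AHR, were in the fit, and 1 of them, Hmox1, had p under 0.05. Hmox1, which encodes the heme-degrading heme oxygenase 1, was at 298, 318, 260 and 299 FPKM in untreated Ct and 327, 326, 361 and 348 FPKM in CS-exposed libraries. Every CS-exposed library lay above every untreated Ct library, a separation of groups that 3.08% of all genes tested showed in one direction or the other. The log2 fold change was 0.22 (SE 0.06, 95% interval 0.08 to 0.35) with a limma p of 0.00400, and the adjusted p over all genes was 0.956. The p of Hmox1 was under 0.05 in each of 19 alternative settings. Rod markers were also higher in CS-exposed libraries (sums of 43.7, 58.7, 90.7 and 31.4 FPKM) than in untreated Ct libraries (26.0, 19.8, 29.1 and 11.1 FPKM). The retinal pigment epithelium markers summed to 0.922 to 1.85 FPKM in untreated Ct and 2.70 to 25.6 FPKM in CS-exposed libraries, with Best1 at 0 throughout and all 4 markers in the fit at p under 0.05. The 5 blood markers summed to 0.265 to 1.73 FPKM in untreated Ct and 0.4999 to 22.8 FPKM in CS-exposed libraries, with none at 0 throughout and 1 of the 2 in the fit, Hba-a1, at p under 0.05. The part of these cells in the value of Hmox1 was not tested. Gclc, the catalytic subunit of glutathione synthesis, was at 27.1 ± 2.04 and 25.0 ± 1.76 FPKM (SD over 4 libraries each). Its limma p was above 0.05 with all libraries and in 17 of 19 alternatives, and under 0.05 without replicate 2 of untreated Ct mice and without replicate 3 of CS-exposed mice.

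**Figure D4:**
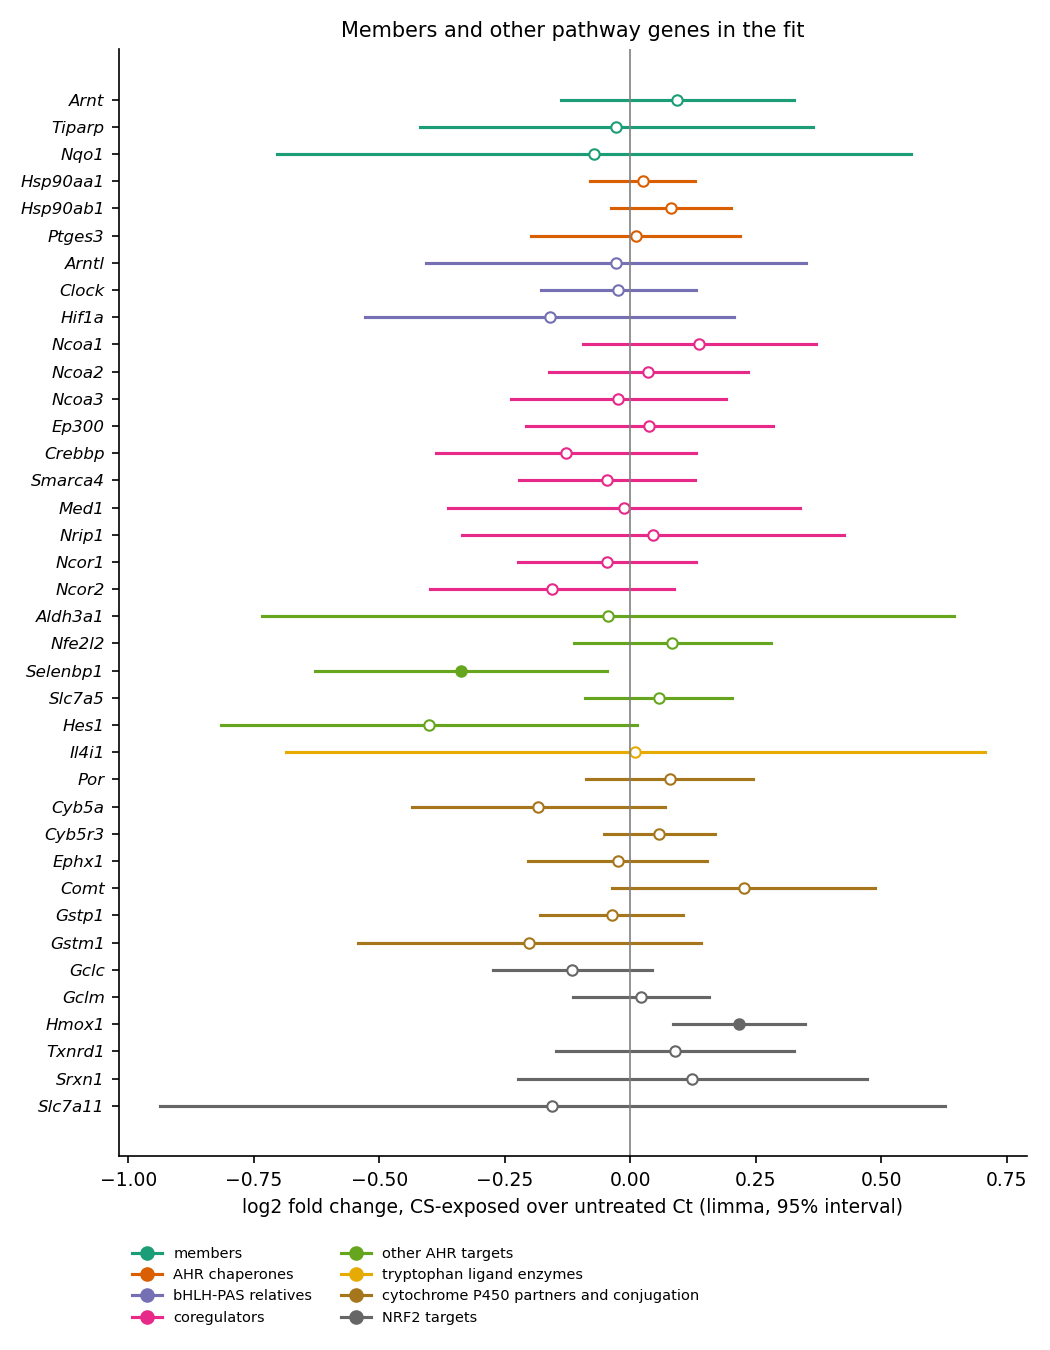
Log2 fold change of CS-exposed over untreated Ct mice (x axis, limma on log2(FPKM + 0.1)) with its 95% interval for the 3 members and the 35 other pathway genes in the fit, colored by list, with filled points where the unadjusted p was under 0.05. Only Selenbp1 and Hmox1 are filled, at -0.34 and 0.22, and no adjusted p was under 0.956.

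The spread between libraries was also set beside markers of lens epithelium, the cell layer from which FC were dissected. The 6 epithelium markers summed to 32.6 to 82.5 FPKM in untreated Ct and 25.1 to 47.3 FPKM in CS-exposed libraries, with replicate 3 the highest of each group, and none of the 6 was at 0 throughout. Of the 6, 4 were in the fit. Mki67 (0.02995 to 0.246 FPKM) and Top2a (0.0635 to 0.255 FPKM) were near the floor and weighed as much as the others in the mean log2 level. The mean log2(FPKM + 0.1) of the 6 markers was set beside log2(FPKM + 0.1) of the 3 members in the fit and of Aldh3a1. Aldh3a1 was added after its values had been seen. Over the 8 libraries Tiparp gave Pearson r = 0.72 (exact permutation p = 0.0365, adjusted over 4 relations 0.0730) and Spearman rho = 0.88 (exact permutation p = 0.00724, adjusted 0.0290). Aldh3a1 is among the 4 relations, and its inclusion makes the adjusted Pearson p of Tiparp and Arnt lower than over the 3 members alone. Without the 2 libraries farthest from the median of the markers, replicate 3 of each group, r of Tiparp was 0.73. For Aldh3a1, as a description since it was chosen for this pattern, r was 0.91 and rho 0.83, and r was 0.67 without the same 2 libraries. For Arnt r was 0.36 (exact permutation p = 0.396, adjusted 0.528) with rho = 0.26 (exact permutation p = 0.536, adjusted 0.582), and r was -0.02 without these 2. For Nqo1 r was 0.15 (exact permutation p = 0.739, adjusted 0.739) with rho = 0.24 (exact permutation p = 0.582, adjusted 0.582), and r was 0.01 without these 2. The part of epithelial cells in the level of Tiparp or Aldh3a1 was not tested.

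**Figure D5:**
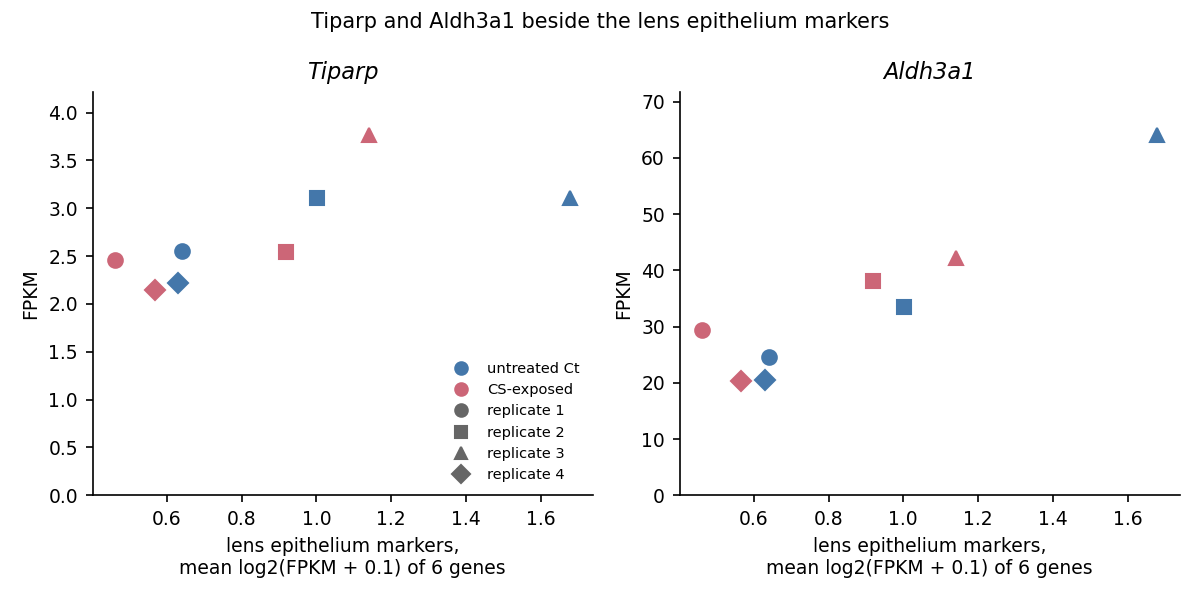
FPKM of Tiparp and Aldh3a1 (y axes, from 0) against the mean log2(FPKM + 0.1) of 6 lens epithelium markers (x axis) in the 8 libraries, colored by group and shaped by replicate number. Both genes are higher where the markers are higher, and the groups are mixed along the axis. On log2(FPKM + 0.1) of the gene, r was 0.72 for Tiparp and 0.91 for Aldh3a1.

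The genes whose pattern over the 8 libraries was most like that of each member were found among 9793 other genes tested, as a description with no test. For Arnt they were Mbd6 (r = 0.973) and Gmds (r = 0.965), for Tiparp Igsf9 (r = 0.971) and Htra1 (r = 0.951), and for Nqo1 Il4 (r = 0.977) and Pogk (r = 0.944). These are the highest of 9793 correlations over only 8 libraries, and r of this size can be reached by selection alone. The values of 1 library share its depth and its dissection.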

How the data were processed

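RNA was measured in 8 libraries, grouped by the sample labels. The labels list STAR 2.5 and HTSeq 0.6.1 and GRCm38. The authors deposited FPKM per gene and library, with the mean of each group. The deposited table also holds the authors' log2 fold change and p-value columns of their own comparison, which were not used. The release of the annotation is not given in the sources used here. The members and lists were chosen with earlier results of these data known.

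A minimum of 1.0 FPKM in the mean of one or the other group left 9794 genes. These were fitted by limma 3.58.1 (lmFit, eBayes with a variance trend, R 4.3.3) to log2(FPKM + 0.1), two-sided, and p-values were adjusted over all 9794 by Benjamini-Hochberg. The fit was tested on simulated data. Exact permutation tests were enumerated in full, over 70 assignments for differences between groups and over all orders of the 8 libraries for correlations. Python 3.11.15, numpy 2.4.6, pandas 2.3.3, scipy 1.17.1 (ranks) and matplotlib 3.10.9 were used for the rest.

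FPKM rise in steps of 1 read. From these steps whole reads were found for 9778 of the 9794 genes (99.8%), and the relative depth of the libraries ranged from 0.910 to 1.17. The length of the longest annotated transcript (GENCODE, GRCm38) matched the step for 64.9% of 9300 genes within 0.5 bases. Of the tested genes, 75.1% had at least 100 reads in every library. Count models were not run on the deposited FPKM, and limma-voom on the recovered reads was an alternative. Other alternatives were pseudocounts, minimum levels, scaling, the replicate block and leaving out each library. Genes named are the members, in each list those with p under 0.05 and the 2 of highest mean FPKM, markers of a cell type that moved with a member, and the 2 genes most like each member in the fit. Also named, outside this rule, are listed targets at 0 throughout, a gene that overlaps Tiparp and Xist. The same holds for some markers of cornea, pigment epithelium and blood. 1 gene first placed in a list is not reported here.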

Additional observations from a re-analysis of the deposited data

Results flagged for a closer look

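Of 42 groups of 4 values examined, 6 held a library far from the other 3, where chance gives about 2.1. For 4 of the 6 the others were at 0, so that any read is enough and the number given by chance does not apply to them. Ahrr was at 0.0422 FPKM (5 reads) in replicate 3 of untreated Ct mice and at 0.00955 FPKM (1 read) in replicate 3 of CS-exposed mice, with 0 in the others of each group. Cyp1b1 was at 0.0270 FPKM (3 reads) in replicate 4 of CS-exposed mice, and Ugt1a6a at 0.0606 FPKM (4 reads) in replicate 2 of untreated Ct mice, again with 0 in the others. In replicate 4 of CS-exposed mice Il4i1 was at 0.663 FPKM, where the other 3 were at 1.14 to 1.22 FPKM, and Kynu was at 0 FPKM, where the other 3 were at 0.290 to 0.343 FPKM. The same library had the highest sum of blood markers, 22.8 FPKM, where the other 7 had 0.265 to 4.23 FPKM, and of melanocyte markers, 6.52 FPKM, where the other 7 had 0.348 to 2.61 FPKM. The part of these differences in the values of Il4i1, Kynu and Cyp1b1 was not tested.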

How the results depend on the processing

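No member in the fit had p under 0.05 under any alternative in which it was tested. These were 19 for Arnt and 18 for each of Tiparp and Nqo1, which a minimum mean of 5 FPKM left out. Arnt stayed higher in CS-exposed mice in all 19 (log2 fold change 0.04 to 0.16). The number of all genes with p under 0.05 was 862 with no minimum FPKM, 713 with a minimum mean of 0.1 FPKM and 226 with one of 5 FPKM, beside 473 as reported, and 418 to 525 when 1 library was left out. Without replicate 3 of CS-exposed mice 286 were lower and 220 higher, and without replicate 4 of untreated Ct mice 248 and 231. By eBayes without a trend both were 249, and in the other alternatives more were higher. No gene kept an adjusted p under 0.05 with no minimum FPKM, without a trend or without replicate 4 of untreated Ct mice. When 1 library was left out, the pathway lists held 1 to 4 such genes (2 as reported), and the log2 fold change ran from -0.19 to 0.073 for Tiparp, from -0.24 to 0.14 for Nqo1, from -0.0044 to 0.047 for Hsp90aa1, from -0.27 to 0.0013 for Hif1a, from -0.26 to 0.28 for Aldh3a1, from -0.22 to 0.25 for Il4i1 and from -0.065 to 0.018 for Gstp1. The pathway lists held 1 such gene with a minimum mean of 5 FPKM and 1 with limma-voom on recovered reads. With a pseudocount of 1 FPKM, Il4i1 was at -0.0080. With the replicate number as a block, 522 genes had p under 0.05, 5 of them at an adjusted p under 0.05, with 0 members and 3 genes of the pathway lists. The labels do not say that numbers pair the pools. Deviations of same-numbered libraries correlated at 0.01 to 0.16, and 6 of 8 libraries correlated best with their own number. Xist, a transcript of female cells, was at most 0.0113 FPKM in replicates 1 and 2 and at least 41.1 FPKM in replicates 3 and 4 of both groups. The causes of these shifts were not tested. Depth limits Ahr, Ahrr, Cyp1b1 and Ugt1a6a, with 0 to 7 reads per library.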
